A study of Homo sapiens with 9 samples.

Results

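Cholesterol synthesis and sterol regulation were followed through 32 genes, chosen by name from the 57338 genes of the deposited table. They cover the mevalonate pathway (7 genes), the steps from squalene to cholesterol (11), the control of sterol regulatory element-binding proteins or SREBPs (5), sterol transport with the liver X receptors or LXRs (5), and fatty acid synthesis (4). By their description the cells were HEK293T, a line of human embryonic kidney origin. They carried a plasmid for EGFP alone (empty vector), for human PRM1 fused to EGFP (hPRM1) or for human PRM2 fused to EGFP (hPRM2). Protamines are the small basic proteins that replace histones in sperm. Live cells with high EGFP signal were sorted 3 days after transfection, and each of the 3 groups had 3 libraries, read from the 3′ ends of polyadenylated transcripts. By this description all groups share the transfection and the sort for EGFP, and plasmid expression is transient. The markers given below go against it for the libraries labelled hPRM1. The labels do not say whether replicates were separate cultures, so the p-values measure only the spread between these libraries.

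Animal cells build cholesterol from acetyl-CoA by way of mevalonate, farnesyl diphosphate, squalene and lanosterol. SREBF2 encodes SREBP-2, the main activator of these genes, and SREBF1 encodes SREBP-1, which acts more on fatty acid synthesis. SCAP carries both precursors from the endoplasmic reticulum to the Golgi for cleavage when sterols are low, INSIG1 and INSIG2 hold them back when sterols are high, and the oxysterol-sensing receptors NR1H2 (LXR beta) and NR1H3 (LXR alpha) activate the exporters ABCA1 and ABCG1. Most cells in culture carry out this synthesis.

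At their promoters, SREBPs usually work beside NF-Y, which binds the CCAAT box, and Sp1, which binds the GC box. RefSeq promoter windows (GRCh38.p14, 250 bases before to 50 bases after a start) were matched by symbol for 27 of the 32 genes, with 39 windows in all. The letters of one sterol regulatory element, TCACNCCAC, were looked for on both strands together with CCAAT and GGGCGG, and none of the 3 contains another. The element was found for 1 of the 27 genes (3.70%), SREBF2 itself, and for 1.51% of all 15842 genes with a window. CCAAT was found for 20 of the 27 (74.1%) against 42.1% of all genes, and GGGCGG for 26 of the 27 (96.3%) against 64.3%. These are letter matches in one window per start and say nothing of binding. The stretch around the element of SREBF2 is shown because it is the gene of the pathway's main activator, with the matched letters in capitals. It is followed, for each role, by a CCAAT match (written ATTGG where it lies on the opposite strand) in the matched gene with the highest empty vector level that has one, each read 5′ to 3′ along its gene with the matched letters in capitals.
SREBF2, chr22:41832952-41833000, plus strand, 133 bases before the start: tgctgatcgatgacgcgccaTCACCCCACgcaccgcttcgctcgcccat
FDPS, chr1:155308795-155308839, plus strand, 51 bases before the start: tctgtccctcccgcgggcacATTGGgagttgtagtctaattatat
DHCR7, chr11:71448417-71448461, minus strand, 48 bases before the start: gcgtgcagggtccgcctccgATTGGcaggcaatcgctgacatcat
INSIG1, chr7:155297688-155297732, plus strand, 170 bases before the start: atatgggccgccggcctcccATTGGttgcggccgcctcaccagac
NR1H3, chr11:47257659-47257703, plus strand, 28 bases before the start: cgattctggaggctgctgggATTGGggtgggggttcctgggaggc
SCD, chr10:100347027-100347071, plus strand, 186 bases before the start: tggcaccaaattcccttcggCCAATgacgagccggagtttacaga

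Levels are given as RPKM (reads on a gene per kilobase and per library depth), as the authors deposited them. Reads on genes, estimated from the spacing of low values, were 7930000 to 10800000 per library for the empty vector, 4210000 to 5860000 for the libraries labelled hPRM1 and 1270000 to 2650000 for hPRM2. PRM2 was at 36130 to 71224 RPKM in the hPRM2 libraries and at 0 elsewhere. PRM1 was at 0 in all 9 libraries, also in those labelled hPRM1, and these libraries stood apart from the other 6 and went against their labelled cell type. A list of 5 HEK293T markers summed to 94.7 to 125 RPKM in the empty vector and to 44.2 to 73.9 RPKM in hPRM2. In the libraries labelled hPRM1 it summed to 0 to 0.306 RPKM, with 4 of the 5 genes at 0 in all 3 libraries. Blood cell markers did the opposite there: 9 erythroid genes summed to 2060240 to 2266410 RPKM, against 3.09 to 18.2 in the empty vector, 8 neutrophil and monocyte genes to 3520 to 4440 RPKM, against 0.284 to 3.02, and 7 lymphocyte genes to 501 to 569 RPKM, against 0. The 4 platelet genes summed to 312 to 544 RPKM there and 3.85 to 13.5 in the empty vector. The library names that the labels give these 3 also come from a separate run of numbers, so condition, library batch and cell source cannot be told apart, and their values are given for the libraries labelled hPRM1, not for cells that express PRM1.

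In the empty vector libraries the pathway was expressed from end to end. The 32 genes summed to 1382 to 1513 RPKM per library, and 30 to 31 of them reached 1 RPKM. The highest was FDPS, the farnesyl diphosphate synthase, at 165, 261 and 247 RPKM in replicates 1, 2 and 3. The mevalonate genes took 36.6 to 39.2% of the sum, the squalene to cholesterol genes 27.8 to 31.1%, fatty acid synthesis 19.0 to 19.5%, SREBP regulation 10.1 to 11.7%, and transport and LXR 1.67 to 2.24%. After FDPS came MVD (mevalonate diphosphate decarboxylase, mean 147 RPKM), INSIG1 (122), FDFT1 (squalene synthase, 99.8) and SCD (stearoyl-CoA desaturase, 76.1). At the other end stood the LXR-driven exporters ABCG1, at a mean of 1.24 RPKM, and ABCA1, at 0.431 RPKM. Neighbours in this order mostly could not be separated: in 27 of the 31 neighbouring pairs the ranges over the 3 libraries overlapped. The order and the shares hold for RPKM, which divides by gene length although the reads come from 3′ ends. In reads the order can differ. FDPS stood for 294 to 2307 reads in replicate 1, depending on the transcript, below the reads of SCD given further on. In replicates 2 and 3 its ranges of 503 to 3946 and 600 to 4712 reads include those of SCD. Within the SREBP system, the retention factor INSIG1 was far above its relative INSIG2, and SREBF2 was above SREBF1 in all 3 libraries.

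In the libraries labelled hPRM1, transcripts of almost the whole sterol pathway were lower than in the empty vector. The groups were compared on log2(RPKM + 1) with limma, and a call needed a change of at least 2-fold with an adjusted p no higher than 0.05. Of the 31 genes tested (ABCA1 was too low), 28 fell, 1 rose and 2 were not called. In the deposited values most of the transcriptome was also lower, with 62.5% of all 13588 tested genes called lower and 12.9% called higher. The number of falling pathway genes has to be read against that. RPKM is relative to all reads of a library, and HBA2 alone was at 1146420 to 1295700 RPKM in the libraries labelled hPRM1. After median-of-ratios rescaling 25.1% of all tested genes were called lower and 32.6% higher. The part of the scale in the general fall was not tested. The tested genes are also not a neutral choice: LSS, CYP51A1, HSD17B7, SC5D, INSIG2, STARD4 and SCD reached 1 RPKM in the empty vector libraries only, so these 7 had to differ. With them, 14 genes in all would not have passed without the empty vector libraries, and ABCG1 would not have passed without the libraries labelled hPRM1. With no filter on low values all 32 genes were tested, 27 were called lower and 1 higher, and of 22088 genes in all 38.7% were called lower and 8.26% higher. On the log2 scale the median change was -3.10 over the 31 genes, beside -1.72 for all tested genes, and without the filter the medians were -2.94 for the 32 and -0.77 for all. In 27 genes the 3 libraries labelled hPRM1 were all below the 3 empty vector libraries, and in 1 all above, against 66.4% and 14.5% of all tested genes. The summed level of the 32 genes was 139 to 238 RPKM in the libraries labelled hPRM1. The blood cell and HEK293T markers given above move with every one of these differences, and their part in them was not tested. Bulk libraries cannot tell fewer cells of a type from less RNA per cell.

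In the deposited values all 7 mevalonate genes fell, by a median of 3.36 on the log2 scale. After median-of-ratios rescaling 3 of them were called lower, and after quantile normalization 4. ACAT2, the cytosolic acetoacetyl-CoA thiolase that opens the pathway, was at 56.8, 75.4 and 79.6 RPKM in the empty vector and at 2.70, 2.90 and 1.79 RPKM in the libraries labelled hPRM1. It fell by 4.37 (SE 0.24, limma adjusted p = 1.05e-05), with no overlap. IDI1, the isopentenyl diphosphate isomerase, was at 38.3, 30.8 and 32.2 RPKM against 1.08, 1.04 and 0.981 RPKM, without overlap. It fell by 4.09 (SE 0.19, limma adjusted p = 6.43e-06). FDPS, the highest in the empty vector, was at 39.5, 33.6 and 30.9 RPKM and fell by 2.64 (SE 0.23, limma adjusted p = 6.50e-05), with no overlap. It was not called after median-of-ratios rescaling (-0.16, limma adjusted p = 0.594) or quantile normalization (-0.88). HMGCS1, which makes HMG-CoA, had a log2 fold change of -3.36, and the kinases MVK and PMVK of -2.22 and -2.77. After median-of-ratios rescaling MVK and PMVK were at -0.27 and -0.42 and not called.

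MVD (ENSG00000167508, chromosome 16, 88651935 to 88663161 in GENCODE 29 on GRCh38) was the exception in this role, with 1 library that decided its value. It was at 204, 98.7 and 138 RPKM in the empty vector and at 1.30, 1.39 and 119 RPKM in the libraries labelled hPRM1, so replicate 3 lay inside the empty vector range, 85.9-fold above the next highest. MVD fell by 4.02 with a large error (SE 1.51, limma adjusted p = 0.0439). Leaving out 1 library at a time gave log2 fold changes from -5.92 to -3.06, with adjusted p from 8.53e-05 to 0.125 (limma), and the call was kept only without replicate 3 labelled hPRM1. It was also lost with no filter (limma adjusted p = 0.0802), a pseudocount of 0.1 or a minimum of 10 RPKM, and in the per-gene test. After median-of-ratios rescaling MVD was at -1.82 (limma adjusted p = 0.363) and not called. After quantile normalization it was at -2.38 (limma adjusted p = 0.225) and not called. MVD has 17 annotated transcripts of 217 to 2352 bases, and the RPKM of such a gene depends on the transcript to which its reads were assigned. The 119 RPKM of replicate 3 correspond to about 116 reads if all came from a transcript of 436 bases, the shortest used for this estimate, and 1311 if all came from the longest.

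In the deposited values all 11 genes from squalene to cholesterol fell, by a median of 3.40. After median-of-ratios rescaling 6 of them were called lower, and after quantile normalization 8. DHCR7 (ENSG00000172893, chromosome 11, 71428193 to 71452868), the reductase of the last step in one branch of the pathway, was at 60.9, 65.5 and 74.3 RPKM in the empty vector and at 0.580, 1.21 and 0.732 RPKM in the libraries labelled hPRM1. It fell by 5.21 (SE 0.22, limma adjusted p = 4.75e-06), which is 37.1-fold on the scale of RPKM + 1. SQLE, squalene epoxidase, an early rate-controlling enzyme after squalene, was at 50.9, 35.4 and 47.5 RPKM against 0.315, 1.05 and 0.282 RPKM. It fell by 4.90 (SE 0.28, limma adjusted p = 1.17e-05). Neither gene overlapped between the groups.

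The other enzymes of this role fell with them. CYP51A1, the lanosterol demethylase, fell by 4.82, and MSMO1, which oxidises the methyl groups that follow, fell by 4.60. NSDHL, the next enzyme of that demethylation, fell by 3.76 and SC5D, a sterol desaturase, fell by 3.40. EBP, the sterol isomerase, fell by 3.10, LSS, lanosterol synthase, fell by 2.53, and TM7SF2, a sterol reductase, fell by 2.25. After median-of-ratios rescaling EBP (-0.86), LSS (-0.90) and TM7SF2 (-0.11) were not called. FDFT1 had the highest empty vector level of the role, at 83.6, 84.8 and 131 RPKM. It was at 20.4, 13.9 and 19.8 RPKM in the libraries labelled hPRM1 and fell by 2.39 (SE 0.26, limma adjusted p = 0.000175), but after median-of-ratios rescaling its value was 0.055 and not called. HSD17B7 fell by 2.07, the least of the role, and was at -0.48 and not called after median-of-ratios rescaling. It has a near-identical pseudogene copy, HSD17B7P2, at 18.0, 11.8 and 13.6 RPKM in the empty vector and 1.52, 2.12 and 0 RPKM in the libraries labelled hPRM1, and the split of reads between them is uncertain.

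The regulators did not move as one. INSIG1 (ENSG00000186480, chromosome 7, 155297776 to 155310235), itself an SREBP target, was at 142, 122 and 101 RPKM in the empty vector and at 3.45, 6.08 and 1.85 RPKM in the libraries labelled hPRM1. It fell by 4.76 (SE 0.36, limma adjusted p = 3.33e-05), 27.2-fold on the scale of RPKM + 1. SREBF2 was at 11.0, 8.48 and 18.5 RPKM against 2.15, 2.86 and 2.03 RPKM, with no overlap. It fell by 1.97 (SE 0.31, limma adjusted p = 0.00101), close to the median of all genes, and was at 0.11 and not called after median-of-ratios rescaling.

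SREBF1 stayed inside its spread. It was at 3.18, 7.60 and 3.24 RPKM in the empty vector and at 4.96, 6.26 and 2.60 RPKM in the libraries labelled hPRM1, and the groups overlapped. Its log2 fold change was 0.011 (95% confidence interval -0.95 to 0.98, limma adjusted p = 0.980). INSIG2 fell by 1.72, a call lost at a pseudocount of 5 (-0.74) and in the fit of all 9 libraries (limma adjusted p = 0.0570). This call was also lost after median-of-ratios rescaling (-0.25, limma adjusted p = 0.551) and quantile normalization (-0.57, limma adjusted p = 0.199). SCAP, at 16.6 to 24.1 RPKM against 7.07 to 10.8 RPKM, fell just far enough to be called (log2 fold change between -1.61 and -0.40 with 95% confidence, limma adjusted p = 0.00896). It was no longer called without empty vector replicate 3 (-0.86) or replicate 1 labelled hPRM1 (-0.82), in the fit of all 9 libraries (limma adjusted p = 0.123) or with a pseudocount of 5 (-0.78), and after median-of-ratios rescaling it reversed to 1.34 and was called higher. Within each library, and so free of scaling between libraries, the ratio of SREBF1 to SREBF2 was 0.290, 0.896 and 0.175 in the empty vector and 2.31, 2.19 and 1.28 in the libraries labelled hPRM1. The empty vector ratios were all below 1 and the others all above it. The ratio of SCAP to SREBF2 was 1.51, 2.26 and 1.30 against 3.28, 3.78 and 5.26. These ratios were chosen after the levels had been seen and were not tested.

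In transport and LXR, genes went both ways. ABCG1 (ENSG00000160179, chromosome 21, 42199689 to 42297244), which exports cholesterol to HDL, was at 0.761, 1.94 and 1.01 RPKM in the empty vector and at 4.22, 2.82 and 6.51 RPKM in the libraries labelled hPRM1. All 3 of the latter lay above all 3 of the former, and ABCG1 rose by 1.28 (SE 0.34, limma adjusted p = 0.0115), the only gene of the 32 to do so in the deposited values. ABCA1 was too low for the test, at 0.591, 0.285 and 0.416 RPKM against 0.633, 0.927 and 1.27 RPKM, again with no overlap.

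The receptors of the exporters differed from each other. NR1H2 was at 10.8, 12.2 and 15.2 RPKM in the empty vector and at 9.01, 14.0 and 14.7 RPKM in the libraries labelled hPRM1, and the groups overlapped. Its log2 fold change was -0.032 (95% confidence interval -0.66 to 0.59, limma adjusted p = 0.914), and it reversed to 2.29 and was called higher after median-of-ratios rescaling. NR1H3 was at 3.48, 9.18 and 14.5 RPKM against 0.891, 0.569 and 1.10 RPKM and fell by 2.27 (SE 0.46, limma adjusted p = 0.00339), a call lost in the fit of all 9 libraries (limma adjusted p = 0.0720) and in a per-gene test. The NR1H3 call was also lost after median-of-ratios rescaling (-0.56, limma adjusted p = 0.322) and quantile normalization (-0.93, limma adjusted p = 0.118). STARD4, which moves cholesterol through the cytosol, was at 9.54, 7.44 and 2.49 RPKM against 0.0525, 0.219 and 0 RPKM. It fell by 2.64 (SE 0.43, limma adjusted p = 0.00119), and its 0 in replicate 3 allows up to 3 reads, or 0.574 CPM (reads per depth, without gene length). STARD4 passed the filter through the empty vector libraries only, so that it fell was fixed in advance. Transport and LXR genes took 9.92 to 13.3% of the summed level of the 32 genes in the libraries labelled hPRM1, above their share in every empty vector library. Their own sum was lower than in the empty vector, at 14.8 to 23.6 RPKM against 25.2 to 33.6 RPKM, with no overlap.

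**Figure D1:**
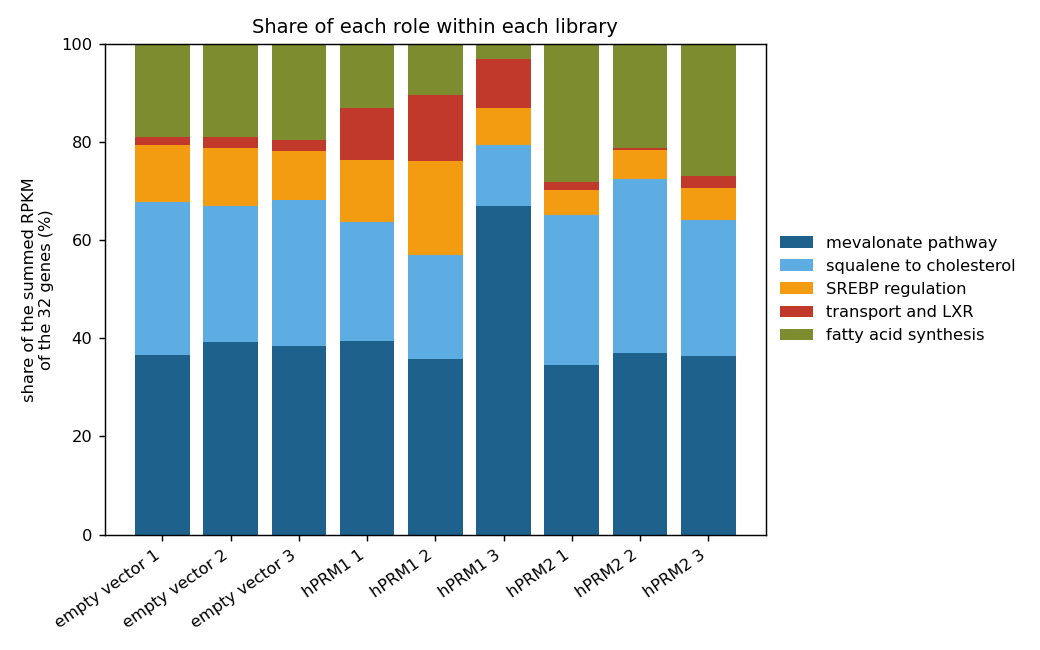
Share of the summed RPKM of the 32 genes taken by each role, in percent, with 1 bar for each of the 9 libraries. The red band, transport and LXR, takes 9.92 to 13.3% in the libraries labelled hPRM1 and 1.67 to 2.24% in the empty vector, although in RPKM its sum is lower in the former (14.8 to 23.6 RPKM against 25.2 to 33.6 RPKM), and the tall dark blue band of hPRM1 replicate 3 holds the MVD value of 119 RPKM.

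Fatty acid synthesis had the lowest median of the 5 roles, -4.26, and all 4 genes fell. SCD (ENSG00000099194, chromosome 10, 100347124 to 100364834), which makes monounsaturated fatty acids, was at 79.8, 77.1 and 71.5 RPKM in the empty vector and at 0.467, 0.279 and 0.299 RPKM in the libraries labelled hPRM1. SCD has a single annotated transcript, so these levels can be turned into reads, about 14.0, 6.0 and 8.01 against 3234, 3368 and 3948. It fell by 5.84 (SE 0.19, limma adjusted p = 2.84e-06), and its difference from the median of all genes was -4.12. SCD passed the filter through the empty vector libraries only, so a fall was fixed in advance. The median of all genes depends on the filter too, at -1.72 with it and -0.77 without. FASN, fatty acid synthase, was at 55.3, 51.9 and 71.4 RPKM against 1.27, 1.49 and 1.01 RPKM and fell by 4.74 (SE 0.22, limma adjusted p = 5.93e-06). ACLY, which makes cytosolic acetyl-CoA, fell by 3.42 and ACACA, acetyl-CoA carboxylase, fell by 3.77. ACACA spread more than the others, at 10.02, 8.08 and 0.738 RPKM in the libraries labelled hPRM1. It was not called in a per-gene test or after median-of-ratios rescaling (-1.57, limma adjusted p = 0.133).

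**Figure D2:**
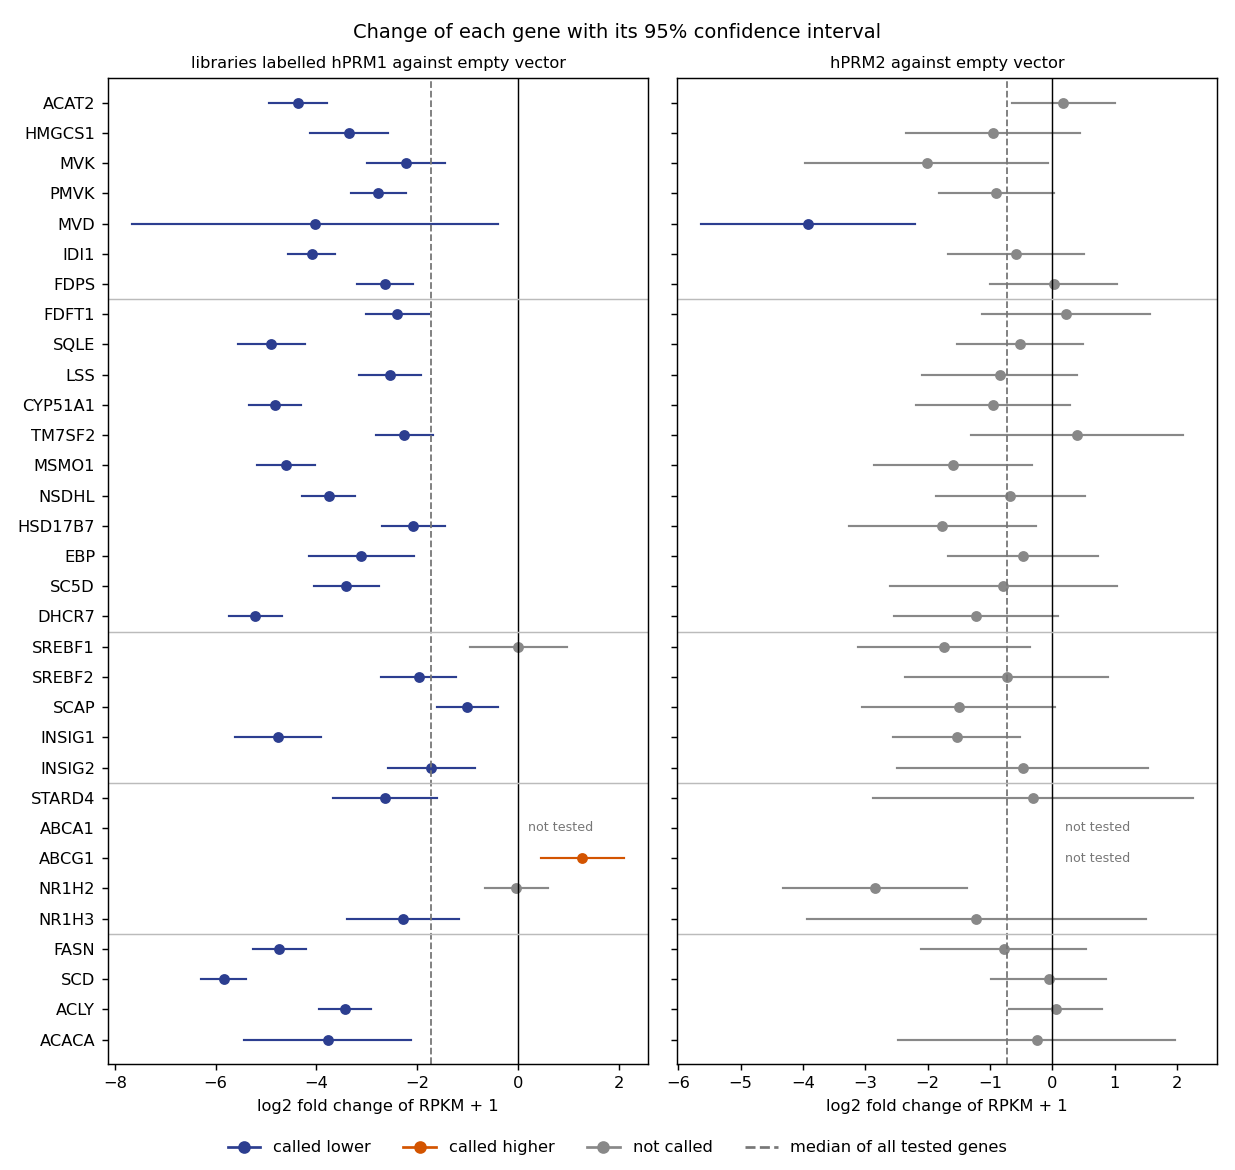
Log2 fold change of RPKM + 1 for each gene (points) with its 95% confidence interval (bars), for the libraries labelled hPRM1 (left) and hPRM2 (right), each against the empty vector, with the median of all tested genes dashed. On the left 28 genes are called lower and ABCG1 higher, with SCD at -5.84 farthest out. On the right MVD at -3.91 is the only called gene and most intervals include 0.

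The scaling of the libraries changed how many of the 31 genes were called in the libraries labelled hPRM1. Median-of-ratios rescaling moved the median of all genes from -1.72 to 0.14, and quantile normalization moved it to -0.38. In the deposited values 90.3% of the pathway genes were called lower and 3.23% higher. After median-of-ratios rescaling these shares were 45.2% and 12.9% (14 and 4 genes), against 25.1% and 32.6% of all tested genes. After quantile normalization they were 58.1% and 9.68% (18 and 3 genes), against 34.4% and 25.1% of all. Under both rescalings 27 of the 31 lay below the median of all genes. The 14 genes called lower in all 3 scalings were the early enzymes ACAT2, HMGCS1 and IDI1, the sterol enzymes SQLE, CYP51A1, MSMO1, NSDHL, SC5D and DHCR7, the regulator INSIG1, the carrier STARD4, and FASN, SCD and ACLY. Among them CYP51A1, SC5D, STARD4 and SCD reached 1 RPKM in the empty vector only, and HMGCS1, IDI1, SQLE, MSMO1 and DHCR7 also needed those libraries to pass the filter. Both rescalings keep this filter, so they are no separate evidence for these genes. ABCG1 was called higher in all 3, and SREBF1 and NR1H2 in both rescalings but not in the deposited values.

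**Figure D3:**
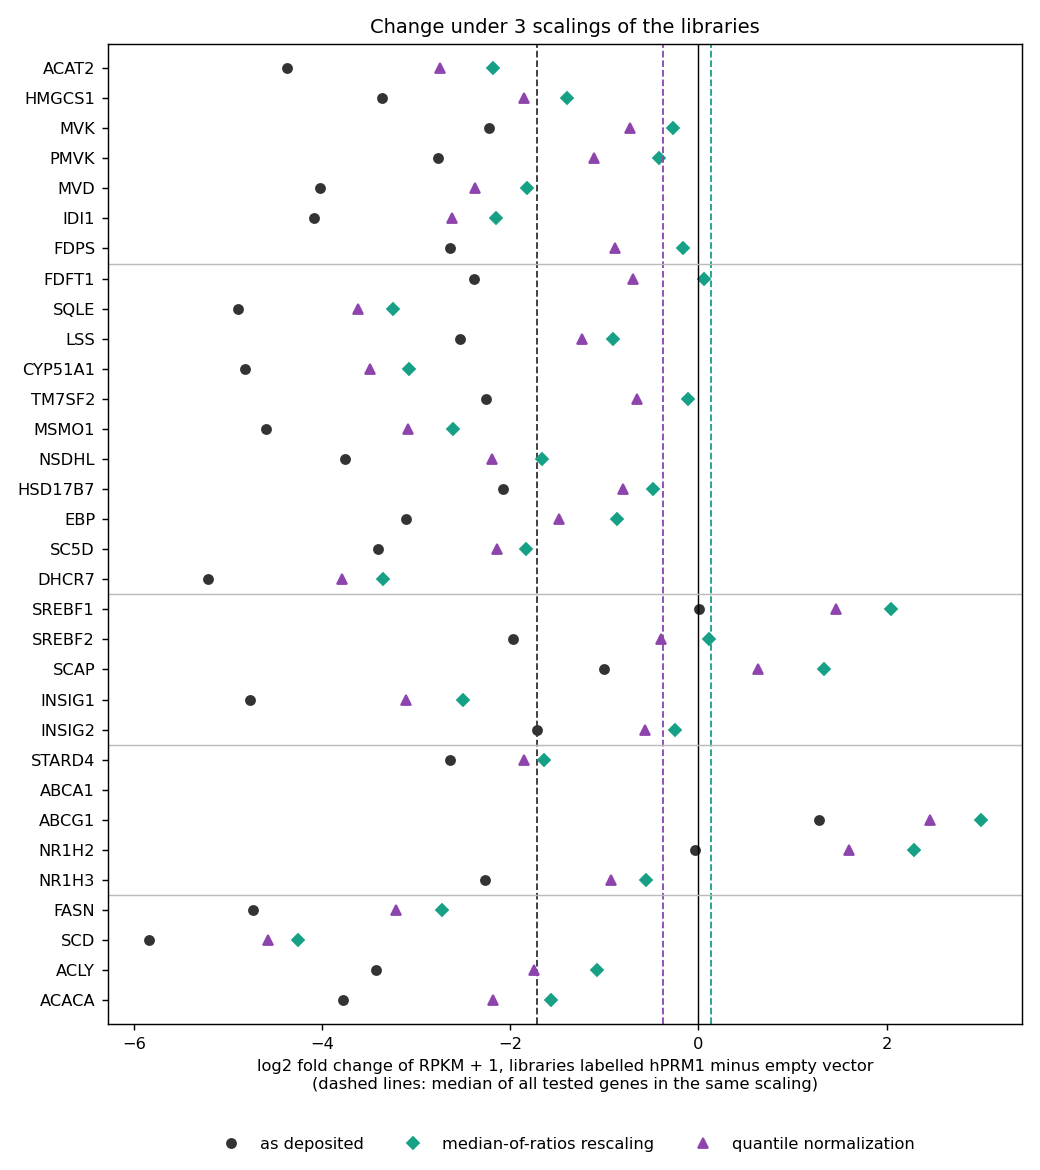
Log2 fold change of RPKM + 1 of each tested gene in the libraries labelled hPRM1 against the empty vector, in the deposited values (black circles), after median-of-ratios rescaling (green diamonds) and after quantile normalization (purple triangles), with the median of all tested genes dashed in the same colour. All genes shift to the right together, SCD, DHCR7 and SQLE remain far left of each dashed line, and SREBF1, SCAP, ABCG1 and NR1H2 lie to the right of it in each scaling.

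In hPRM2, most of the pathway was not called different from the empty vector, on fewer reads and with a wide spread. Of the 30 genes tested (ABCA1 and ABCG1 were too low), 1 was called lower and none higher by limma, where 1.37% of all 13126 tested genes were called lower and 1.36% higher. At an unadjusted p under 0.05 there were 7 of the 30, against 25.5% of all tested genes, and a per-gene test called 0. The median log2 fold change of the 30 was -0.78, against -0.72 for all tested genes. In 12 genes all 3 hPRM2 libraries lay below the empty vector and in 0 above, against 29.9% and 6.01% of all tested genes. Both comparisons use the same 3 empty vector libraries, and the difference between them was not tested.

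MVD was the called gene. It was at 25.4, 3.00 and 6.91 RPKM in hPRM2, all below the lowest empty vector value of 98.7 RPKM, and fell by 3.91 (SE 0.73, limma adjusted p = 0.0428). The call rested on small differences: without any 1 library other than hPRM2 replicate 1 it was lost, with limma adjusted p up to 0.268. It was also lost in the fit of all 9 libraries, where HSD17B7 and NR1H2 were called instead. The other mevalonate genes were not called. ACAT2, at 92.4, 59.6 and 89.5 RPKM, overlapped the empty vector, as did FDPS at 397, 157 and 178 RPKM and IDI1 at 35.8, 14.4 and 20.5 RPKM. MVK and PMVK did not overlap, at log2 fold changes of -2.02 and -0.90 (limma adjusted p = 0.186 and 0.203).

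From squalene to cholesterol, 5 of 11 genes lay below the empty vector in all 3 hPRM2 libraries (29.9% of all tested genes did), LSS, CYP51A1, MSMO1, HSD17B7 and DHCR7, and none was called. MSMO1 was at 26.3, 7.78 and 22.8 RPKM, against 47.2 to 65.2 RPKM in the empty vector, a log2 fold change of -1.60 (SE 0.54, limma adjusted p = 0.135). DHCR7 was at 59.0, 13.5 and 27.0 RPKM, where the first value is just under the lowest empty vector library and the others are far below. Its log2 fold change was -1.22 (SE 0.56, limma adjusted p = 0.220). SQLE, at 23.1, 25.8 and 47.0 RPKM, overlapped the empty vector, with a 95% confidence interval of -1.53 to 0.49. FDFT1, at 271, 75.6 and 71.6 RPKM, and TM7SF2, at 14.8, 65.3 and 10.4 RPKM, each had 1 library far above the others.

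Among the regulators, INSIG1 was at 65.6, 25.2 and 41.6 RPKM in hPRM2, all below the lowest empty vector value of 101 RPKM. Its log2 fold change was -1.53 (SE 0.43), with a limma adjusted p of 0.0984. SREBF1 was at 0, 1.53 and 0.634 RPKM and SCAP at 7.97, 2.24 and 12.4 RPKM, both below the empty vector without overlap and neither called (log2 fold changes -1.74 and -1.50, limma adjusted p = 0.135 and 0.204). SREBF2 overlapped, at 16.3, 5.38 and 3.36 RPKM. The SREBF1 to SREBF2 ratio, at 0, 0.283 and 0.189, stayed below 1 as in the empty vector.

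NR1H2 (ENSG00000131408, chromosome 19, 50329653 to 50382982) had the largest difference after MVD. It was at 0, 1.80 and 1.42 RPKM in hPRM2, against 10.8 to 15.2 RPKM in the empty vector, with no overlap. Its log2 fold change was -2.85 (SE 0.62), with a limma adjusted p of 0.0616, so it was not called. At the depth of hPRM2 its values rest on few reads: 1.80 RPKM is at most 4.86 reads, and a 0 in replicate 1 allows up to 3 reads, or 1.13 CPM. The exporters were at the edge of detection, ABCA1 at 0, 0 and 0.850 RPKM and ABCG1 at 0, 0 and 0.234 RPKM. NR1H3, at 1.81, 0 and 18.9 RPKM, and STARD4, at 26.3, 0.901 and 2.14 RPKM, spread so widely that their intervals included both a large fall and a rise. A 0 in replicate 2 allows up to 2.36 CPM.

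Fatty acid synthesis had the median nearest to 0 of the 5 roles, -0.16. SCD was at 115, 52.9 and 63.5 RPKM, on both sides of the empty vector range, with a log2 fold change of -0.060 (95% confidence interval -0.98 to 0.86). ACLY was at 68.1, 70.8 and 76.9 RPKM, inside that range, at 0.055 (-0.69 to 0.80). FASN, at 68.1, 15.9 and 35.3 RPKM, and ACACA, at 233, 13.2 and 78.7 RPKM, overlapped the empty vector too. None of the 4 was called, and these intervals leave room for changes of up to about 2-fold even in the best-measured, SCD and ACLY.

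The hPRM2 libraries differed among themselves in this pathway. Replicate 1 was the highest of the 3 for 17 of the 32 genes and the lowest for 11, with 6 genes at 0, while replicate 2 had 3 genes at 0 and replicate 3 had 0. The median difference of the pathway genes from the empty vector mean was -0.20 in replicate 1, -1.22 in replicate 2 and -0.69 in replicate 3. Replicate 1 also had the fewest genes above 0 of all 9 libraries. Without it, 6 genes were called lower: MVD, DHCR7 (-1.75), HMGCS1 (-1.48), MSMO1 (-1.90), INSIG1 (-1.87) and NR1H2 (-2.39), which is 20% of the 30, where 12.3% of all tested genes were called lower. Genes with a library over 3-fold above the next highest numbered 0 in the empty vector, 3 in the libraries labelled hPRM1 and 7 in hPRM2, where ABCA1 and ABCG1, above 0 in 1 library only, come on top.

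A further 39 genes around the pathway, 37 of them tested, were listed by function. In the deposited values of the libraries labelled hPRM1, 29 fell and 1 rose, with a median of -1.94. Over all tested genes 62.5% were lower and 12.9% higher, with a median of -1.72. All 8 of the isoprenoid branch fell, and NUS1, a subunit of the enzyme that makes dolichol, fell by 3.66, the furthest. All 7 genes of SREBP processing and degradation fell, and RNF139, a ubiquitin ligase of the endoplasmic reticulum, fell by 2.99. After median-of-ratios rescaling RNF139 was at -0.93 and not called. Among 10 tested genes of sterol uptake, storage and movement 6 fell and 1 rose. TMEM97, a sterol-responsive membrane protein of the endoplasmic reticulum, was at 161, 156 and 136 RPKM against 1.03, 4.21 and 3.44 RPKM and fell by 5.39. MYLIP, an LXR target that degrades lipoprotein receptors, was at 6.19, 7.81 and 5.14 RPKM against 13.0, 20.6 and 25.3 RPKM, with no overlap, and rose by 1.45 (SE 0.30, limma adjusted p = 0.00354), a call lost in the fit of all 9 libraries (limma adjusted p = 0.115). In lipogenesis 6 of 10 fell, and FADS1, a fatty acid desaturase, fell by 4.65. Of the 2 late sterol genes, both of which fell, ERG28 fell by 2.62. The ERG28 call was lost after median-of-ratios rescaling (-0.51, limma adjusted p = 0.0541).

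In hPRM2 none of these 37 fell and 1 rose, with a median of -0.84, beside 1.37% lower, 1.36% higher and a median of -0.72 over all tested genes. LPIN1, a phosphatidate phosphatase of glycerolipid synthesis, was at 8.15, 9.03 and 14.5 RPKM in the empty vector and at 80.5, 74.2 and 96.9 RPKM in hPRM2, and the groups were far apart. It rose by 2.91 (SE 0.41, limma adjusted p = 0.0255). Without 1 library at a time its log2 fold change ranged from 2.76 to 3.14 and the adjusted p from 0.0131 to 0.158 (limma), the call being lost without any library but hPRM2 replicate 1. In the libraries labelled hPRM1 LPIN1 was at 17.9, 11.1 and 20.7 RPKM and not called in the main fit. It was called higher there in 2 of 16 other settings, over which its log2 fold change ranged from 0.43 to 2.92. The lowest values of each list in hPRM2 were FNTA (-1.69), MBTPS1 (-1.55), SCARB1 (-2.11), ELOVL1 (-1.67) and LBR (-1.06), and the highest besides LPIN1 was PDSS1 (1.25), with limma adjusted p from 0.105 to 0.388.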

How the data were processed

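Libraries were made by the authors with a QuantSeq 3′ kit and processed with FastQC, Cutadapt, STAR and Salmon (per the labels, build hg38, versions not given in the sources used here). The authors removed mitochondrial genes, divided counts by library reads and gene length, and deposited RPKM values, without counts, for 57338 genes. Columns left unused numbered 0. Members and gene lists were chosen with earlier results of these data known. All 32 members are named, with every library's value for those called in hPRM2, the 2 largest changes of each role in the libraries labelled hPRM1, members called higher or not called there, and the highest of each role in the empty vector. Other genes are named when they had the largest rise or fall of their list, and DHCR7, HMGCS1, MSMO1 and INSIG1 in further places after their values were seen. Some genes of the planned lists are not reported here.

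Either protamine group and the empty vector group were fitted separately from the third group in R 4.3.3 with limma 3.58.1 (lmFit, eBayes with trend and robust) on log2(RPKM + 1), over genes with at least 1 RPKM in at least 3 of the 6 libraries, with Benjamini-Hochberg adjustment over all genes tested. Fold changes on this scale understate changes of low genes. Tests were tried on simulated data, with known changes set among the higher-expressed genes, in 100 genes for each size of change. Far more genes were called in the real comparison of the libraries labelled hPRM1, and the adjustment depends on their number. Recovery in that comparison can therefore differ. For the libraries labelled hPRM1, 60% of log2 changes of 2 and 97% of log2 changes of 4 were recovered. For hPRM2 these shares were 16% and 70%, so many 4-fold changes would be missed there. Reads were estimated with GENCODE 29 lengths less 250 bases. Of the low values of genes with 1 transcript, 92.9 to 95.9% lay within 0.1 of whole reads, but values of genes with several transcripts did not give whole reads, so counts were not tested. A 0 was read as at most 3 reads, for counting error only. Of the members, 21 overlap another annotated gene, 8 of them a coding gene, and whether counting used the strand is not given. No pattern shared by same-numbered replicates was seen, which cannot exclude that they were paired. No 2 libraries held identical values. Alternatives were pseudocounts of 0.1 and 5, no filter, a minimum of 10 RPKM, median-of-ratios rescaling, quantile normalization, all 9 libraries in one fit, a replicate block, no fold threshold, the per-gene test of the study's methods, and leaving out each library. Tables were handled in Python 3.11.15 with pandas 2.3.3 and numpy 2.4.6 and drawn with matplotlib 3.10.9.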

Additional observations from a re-analysis of the deposited data

How the results depend on the processing

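For the libraries labelled hPRM1, the median log2 fold change of the pathway genes was -3.10, and -3.62 with a pseudocount of 0.1, -2.24 with 5, -3.77 with a minimum of 10 RPKM, -1.08 after median-of-ratios rescaling and -1.75 after quantile normalization, and -3.40 to -2.93 when 1 library was left out. The 28 genes called lower became 14 and 18 with the rescalings, 25 in the fit of all 9 libraries, in the per-gene test and with a pseudocount of 5, and 20 with a minimum of 10 RPKM (19 to 28 when 1 library was left out, with 24 genes tested without an empty vector library), and the 1 called higher became 4 and 3 with the rescalings and 0 with a pseudocount of 5 or a minimum of 10 RPKM. For hPRM2, the 1 gene called lower became 0 with a pseudocount of 0.1, no filter, a minimum of 10 RPKM, median-of-ratios rescaling, the replicate block or the per-gene test, 2 in the fit of all 9 libraries, and 0 to 6 when 1 library was left out, and the median of -0.78 became -0.24 after median-of-ratios rescaling. At a pseudocount of 5, HSD17B7 (-0.95) and ABCG1 (0.60) in the libraries labelled hPRM1 were no longer called. The cause of these shifts was not tested, except that a minimum of 10 RPKM tests fewer genes. Under the replicate block MVD had a limma adjusted p of 0.0551 and LPIN1 of 0.0878 in hPRM2, and no other named call changed. Same-numbered libraries correlated at -0.078 to 0.080 in their deviations. No pairing by number was seen, but these correlations cannot exclude one.

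Signs changed after median-of-ratios rescaling for FDFT1 (0.055), SREBF2 (0.11), SCAP (1.34) and NR1H2 (2.29) in the libraries labelled hPRM1, and after quantile normalization for SCAP (0.64) and NR1H2 (1.60). For hPRM2 they changed after median-of-ratios rescaling for SQLE (0.032), EBP (0.074), INSIG2 (0.068), STARD4 (0.14), SCD (0.49) and ACACA (0.30), and after quantile normalization for FDPS (-0.015), INSIG2 (0.50), STARD4 (0.0082) and SCD (0.059). When 1 library was left out, values spanned 0 for SREBF1 (-0.20 to 0.35) and NR1H2 (-0.15 to 0.17) in the libraries labelled hPRM1. In hPRM2 they did so for FDPS (-0.39 to 0.28), EBP (-0.74 to 0.0067), STARD4 (-1.47 to 0.45), ACLY (-0.011 to 0.18), FDFT1 (-0.40 to 0.55), INSIG2 (-1.06 to 0.34), TM7SF2 (-0.37 to 0.90), SCD (-0.39 to 0.17) and ACACA (-1.18 to 0.84). Of these genes FDFT1, SREBF2 and SCAP were called in the deposited values, all in the libraries labelled hPRM1. The low depth of hPRM2 limits what can be said of genes under about 10 RPKM there.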
